A study of Mus musculus with 9 samples.

Results

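Polyamine synthesis and antizyme genes were examined in the mouse jejunum with Oaz1, a gene proposed as a universal reference gene, set beside the pathway it acts on. The 7 genes were the antizymes Oaz1 and Oaz2, the synthesis genes Odc1, Amd1, Srm and Sms, and the catabolic gene Sat1. They were taken as all probe rows whose gene symbol equals one of these names, which found 6 genes with 8 probes, and the Odc1 probe was added by its RefSeq transcript because the array files use the older symbol Odc. The group therefore held 9 probes of 17302 probes with a gene symbol, and 7 of 15674 genes. Oaz1 and Oaz2 had a pair of probes each, called here the brighter and the dimmer probe by their mean signal, and the Amd1 probe is shared with its close copy Amd2, so that their signals cannot be told apart.

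The arrays came from 9 male mice of the outbred strain OF1, aged 7 weeks, from generation 3 of a feeding study. The animals received feed B, feed K or feed G, with 3 mice and one array per mouse for each feed, and the feeds are identified by letter only, with no feed named as the control. The paper states that these data addressed a custom maize diet given freely, and the labels do not say which letter it was. Food, but not water, was withheld for a few hours before sampling. A short segment of the jejunum around the bend of the small intestine was taken from each mouse. The time of day of sampling was neither recorded nor randomised between the feeds. The mice carried no transgene or drug treatment that the labels name.

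Polyamines are small, positively charged molecules that bind nucleic acids and that dividing and growing cells need in quantity. Ornithine decarboxylase makes putrescine, and spermidine synthase and spermine synthase add aminopropyl groups that are supplied by S-adenosylmethionine decarboxylase. Antizymes bind ornithine decarboxylase and direct it to the proteasome, and their own synthesis needs a ribosomal frameshift that polyamines favour, so that an antizyme mRNA level is not a measure of the antizyme protein. The intestine takes up polyamines from the lumen and also makes its own, and its epithelium is renewed continuously.

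Each array gave a signal and a signal-to-noise ratio (S/N) per probe. A spot was called detected at S/N of 3 or more. Per array, 33.7% to 43.6% of all probes were detected in feed B, 41.2% to 47.6% in feed K and 46.4% to 48.1% in feed G, the median signal of an array lay between 117 and 164 and 432 to 1045 spots per array were marked as failed. None of the 81 spots of the 9 probes was marked as failed. All 6 jejunal enterocyte markers with a probe were detected on all 9 arrays, and none of the 32 markers tested passed at an adjusted p of 0.05 in the limma F test. Of the 6, Slc5a1, the sodium-glucose cotransporter of the brush border, was under 0.05 unadjusted: it read 15.03 to 15.59 in feed B, 16.49 to 16.60 in feed K and 15.72 to 16.68 in feed G, with feed B below both other feeds without overlap. The part of Slc5a1 in the differences from feed B below was not tested. Fabp6, the ileal bile acid binding protein, varied more between mice of one feed than any member did: its log2 signal was 15.81, 4.67 and 17.84 in mice 7, 8 and 10 of feed B, 8.92, 12.19 and 11.81 in mice 1, 3 and 4 of feed K, and 8.10, 8.96 and 19.51 in mice 4, 8 and 11 of feed G. Slc10a2, the ileal bile acid transporter, was also highest in mouse 11 of feed G (12.66) and mouse 10 of feed B (12.05), followed by mouse 4 of feed K (9.73) and mouse 7 of feed B (9.46). The part of ileal marker signal in the results below was not tested. The 2 pancreatic acinar markers with a probe, Pnlip and Prss2, were not detected on any array. In whole tissue, fewer cells of a type and less RNA per cell cannot be told apart.

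Of the 9 probes 6, which represent 5 genes, passed the detection limit in every mouse, beside 6299 of the 17302 probes with a gene symbol. Srm was detected on 4 arrays and Sms on 5. Of the 81 spots 69 were detected. In 5 spots, of the dimmer Oaz1 probe, Srm and Sms, the S/N was under 1, and there the signal column holds the noise of the spot in place of a signal. The values below are log2 signals after quantile normalisation, which gives every array the same distribution of signals. Mice are listed in the order 7, 8 and 10 for feed B, 1, 3 and 4 for feed K, and 4, 8 and 11 for feed G.

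The brighter probe of Oaz1 read 12.90, 13.05 and 12.99 in feed B, 12.99, 13.08 and 12.95 in feed K, and 13.00, 13.12 and 12.74 in feed G. The 3 feeds overlapped entirely, and a single mouse, mouse 11 of feed G, lay below the others. The S/N was 14.97 to 60.72, far above the detection limit. The mean was 12.98 ± 0.08 in feed B, 13.00 ± 0.07 in feed K and 12.95 ± 0.19 in feed G (SD, n = 3 each).

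The dimmer probe of Oaz1 behaved differently. It read 6.58, 5.82 and 7.44 in feed B, 8.94, 8.17 and 8.47 in feed K, and 8.21, 7.51 and 6.64 in feed G. Feed K lay above all 3 mice of feed B without overlap, while feed G spanned the gap. The readings of mouse 7 of feed B and mouse 11 of feed G were the noise of the spot. This probe was detected on 6 of the 9 arrays, in 1 mouse of feed B, 3 of feed K and 2 of feed G, and its highest S/N was 5.73. Both probes are assigned to the same RefSeq transcript in the files, and over the 9 mice they were only weakly related (Pearson r = 0.24, exact permutation p = 0.538; Spearman rho = 0.07, p = 0.880).

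Oaz2 encodes a second antizyme that also binds ornithine decarboxylase. Its brighter probe read 13.12, 12.52 and 12.74 in feed B, 12.15, 13.20 and 12.75 in feed K, and 12.96, 12.95 and 12.84 in feed G. Its dimmer probe read 9.26, 9.74 and 10.36 in feed B, 10.14, 10.18 and 9.85 in feed K, and 9.93, 9.14 and 9.51 in feed G. The feeds overlapped on both probes, and both were detected on all 9 arrays, yet the probes did not move together over the mice (r = -0.33, exact permutation p = 0.400; rho = -0.20, p = 0.613).

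Odc1, the target of both antizymes and the enzyme that commits ornithine to polyamines, read 13.19, 13.83 and 13.81 in feed B, 13.72, 13.29 and 13.75 in feed K, and 13.45, 13.35 and 13.23 in feed G. Mouse 7 of feed B and mouse 3 of feed K lay with the mice of feed G, and the other mice of feeds B and K lay above them. Amd1, the decarboxylase that prepares the aminopropyl donor, read 10.68, 10.73 and 11.23 in feed B, 10.86, 10.55 and 10.54 in feed K, and 11.06, 11.19 and 10.84 in feed G. The feeds overlapped, with the lowest mice in feed K.

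Srm, spermidine synthase, and Sms, spermine synthase, were close to the detection limit. Srm read 9.53, 8.95 and 8.84 in feed B, 9.13, 8.37 and 8.88 in feed K, and 8.20, 8.62 and 7.67 in feed G. All 3 mice of feed B read above all 3 of feed G, but the probe was detected in 0 of 3 mice of feed B against 2 of 3 in feed K and 2 of 3 in feed G. The noise of the Srm spot was 172 to 318 signal units in feed B, 50.1 to 145 in feed K and 48.6 to 119 in feed G, and in mouse 8 of feed B the reading was the noise itself. The order of the signals and the order of the detection calls thus ran opposite ways for Srm, and Srm did not reach the detection limit in any mouse of feed B.

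Sms read 6.90, 4.80 and 8.02 in feed B, 8.46, 8.57 and 7.07 in feed K, and 8.44, 8.79 and 8.08 in feed G. All 3 mice of feed G lay above all 3 of feed B, where the readings of mice 7 and 8 were the noise of the spot. Sms was detected in 0 of 3 mice of feed B, 2 of feed K and 3 of feed G. Neither Sms, Srm nor the dimmer Oaz1 probe was detected in mice 7 and 8 of feed B. Their arrays had the lowest shares of all probes detected (36.7% and 33.7%). In mouse 4 of feed K (41.2%) and mouse 10 of feed B (43.6%), Srm and Sms were missed and the dimmer Oaz1 probe was detected. In mouse 4 of feed G (46.4%) Srm alone was missed. In mouse 11 of feed G (46.6%) the dimmer Oaz1 probe alone was missed. All of these probes were detected in mouse 1 of feed K (42.1%), mouse 3 of feed K (47.6%) and mouse 8 of feed G (48.1%). The part of that share was not tested. Sms was under the detection limit in all 3 mice of feed B, with a highest S/N of 2.97, so no fold over feed B is given.

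Sat1, the acetyltransferase that marks spermidine and spermine for export or oxidation, read 9.27, 9.84 and 9.06 in feed B, 9.64, 9.61 and 9.89 in feed K, and 9.34, 9.62 and 9.47 in feed G. It was detected on all 9 arrays, and the feeds overlapped.

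**Figure D1:**
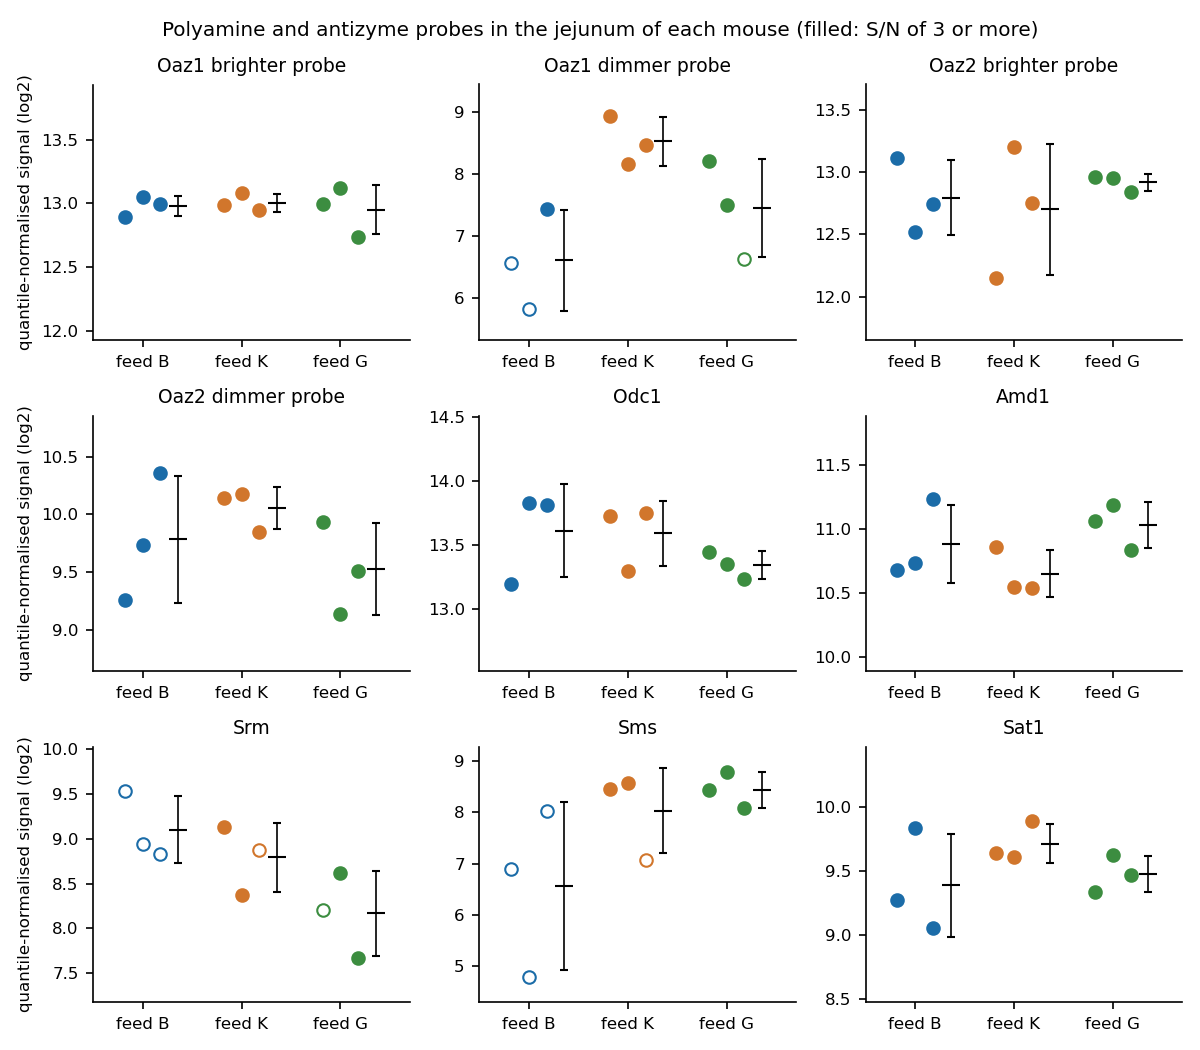
Quantile-normalised signal (log2, vertical axes with a scale of their own per panel) of each of the 9 probes in each mouse, by feed. Filled circles are spots with S/N of 3 or more and open circles those below it, and the dash with bars gives the mean ± SD of 3 mice. The Oaz1 brighter probe lies between 12.74 and 13.12 in all 9 mice, while its dimmer probe spans 5.82 to 8.94 and is open in 3 mice.

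The first comparison asked whether any member differed between the 3 feeds. Genes detected on at least 3 arrays were tested with the moderated F test of limma on the mean of a gene's probes, and all 7 members entered among 9652 genes. None of the 7 passed at an adjusted p of 0.05, and over all genes tested 0.0% passed. The smallest adjusted p of a member was 0.897. At an unadjusted p under 0.05 the F test called 1 of the members, beside 5.37% of all genes. It was Oaz1, with an unadjusted limma p of 0.0314.

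The Oaz1 call came from the dimmer probe. Tested on their own, the dimmer probe gave an unadjusted limma p of 0.0157 (adjusted p = 0.803) and the brighter probe one of 0.952 (adjusted p = 0.994), beside 5.46% of 10467 probes under 0.05. The exact permutation F test over the 280 ways to split 9 mice into 3 feeds, whose smallest possible p is 0.00357, gave p = 0.0429 for the dimmer probe, 0.914 for the brighter probe and 0.0464 for their mean. For Srm and Sms the same permutation test gave p = 0.0679 and p = 0.0893, and for Oaz2, Odc1, Amd1 and Sat1 it gave 0.718, 0.354, 0.207 and 0.364.

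Between feed K and feed B, 0 of the 7 members passed at an adjusted p of 0.05, beside 0.0% of all genes. Of the members 4 were higher and 3 lower in feed K, with a median log2 difference of 0.09 beside 0.05 over all genes tested. At an unadjusted p under 0.05 the count was 1 of 7, beside 6.31% of all genes. This was Oaz1, whose mean over probes was higher in feed K by 0.97 (SE 0.30, limma unadjusted p = 0.0108, adjusted p = 0.773). Its dimmer probe differed by 1.91 (95% interval 0.75 to 3.07, limma unadjusted p = 0.00512), whereas its brighter probe differed by 0.02 (interval -0.36 to 0.41), beside 6.18% of probes under 0.05. The dimmer probe was detected in 1 of the 3 mice of feed B, so its difference rests in part on a reading of noise. The interval of the brighter probe did not reach the lower end of that of the dimmer probe.

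Between feed G and feed B no member passed at an adjusted p of 0.05 either, beside 0.0% of all genes, and 4 members were higher and 3 lower in feed G, with a median of 0.09 beside 0.06 over all genes tested. At an unadjusted p under 0.05 there were 2 of 7, beside 5.74% of all genes and 5.7% of probes. These were Srm and Sms, neither of which was detected in any mouse of feed B, with an S/N of 0.24 to 2.63 for Srm and 0.37 to 2.97 for Sms. Their fitted log2 differences, -0.94 for Srm and 1.86 for Sms, were therefore taken against readings under the detection limit, in part the noise of the spot. They do not measure a decrease or an increase. The Sms value also rested on mouse 8 of feed B, and without that mouse it was 1.01.

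Between feed G and feed K no member passed at an adjusted or an unadjusted p of 0.05, beside 0.0% and 4.54% of all genes, and 4.64% of probes unadjusted. Of the members 2 were higher and 5 lower in feed G, and the median difference was -0.24, beside -0.01 over all genes tested. Amd1 differed by 0.38 (95% interval -0.12 to 0.88) and Odc1 by -0.24 (interval -0.78 to 0.29). With 3 mice per feed, each of these intervals ran from a lower to a higher signal in feed G than in feed K.

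**Figure D2:**
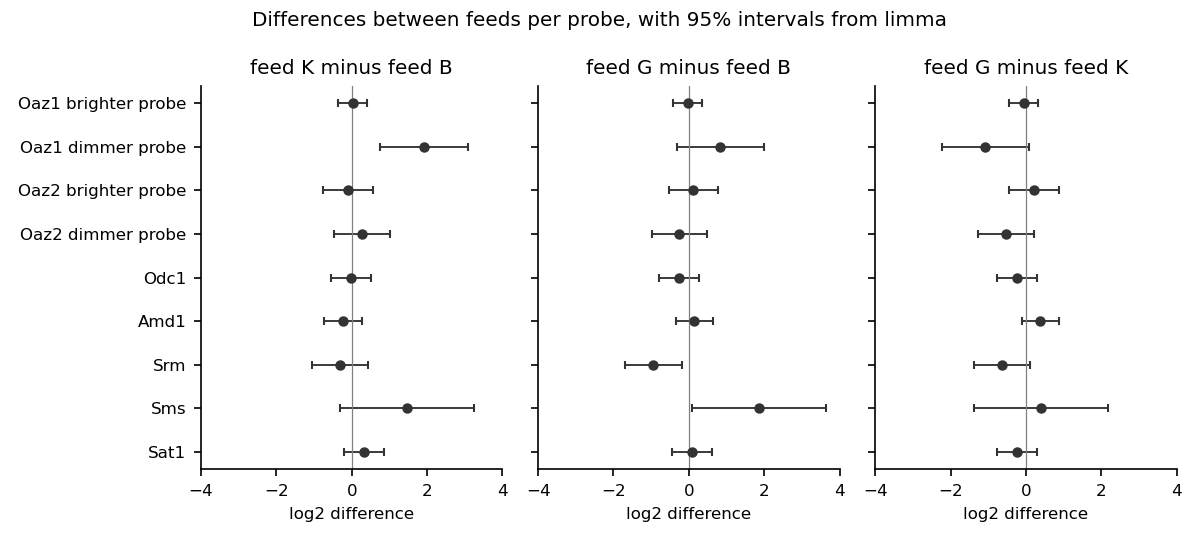
Log2 difference (horizontal axis) of each probe between the feeds of each pair, with 95% intervals from the limma fit across all probes. The intervals of the Oaz1 brighter probe are the shortest in each panel, and only the Oaz1 dimmer probe (K over B), Srm and Sms (G over B) have intervals that leave out 0. None passed after adjustment, and Srm and Sms were detected in 0 of 3 mice of feed B.

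The second question was how steady Oaz1 was over the mice, since a reference gene serves by its small spread. After quantile normalisation the SD of the brighter Oaz1 probe over the 9 mice was 0.11, and its highest signal was 1.30-fold its lowest. Its SD ranked 168 of 6299 probes detected on all 9 arrays (percentile 2.65), and was at percentile 5.87 among the 733 probes within 0.5 log2 of its level. The median SD of the 6299 probes was 0.28. Without mouse 11 of feed G the SD of this probe fell to 0.07, and this mouse had the highest Fabp6 signal.

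After quantile normalisation none of the other members detected on every array was as steady. Amd1 and Odc1 each had an SD of 0.26 (percentiles 42.9 and 43.6), and Sat1 one of 0.27 (46.1). The brighter and dimmer probes of Oaz2 had SDs of 0.32 (59.1) and 0.42 (77.0). In SD these probes lay near the middle or in the upper part of all probes detected on 9 arrays. Under this scaling the small spread of the brighter Oaz1 probe was thus not shared by the other members. Among probes within 0.5 log2 of their own level, the percentiles were 47.5 for Amd1, 54.8 for Odc1 and 27.2 for Sat1. They were 70.3 and 72.0 for the brighter and dimmer probes of Oaz2. These ranks are descriptions with no test. The SDs of Srm (0.55), Sms (1.26) and the dimmer Oaz1 probe (1.02) include spots at noise level.

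The rank of Oaz1 depended on the probe and on the scaling. When both Oaz1 probes were averaged, the SD of the gene was 0.53 and its percentile 86.5 among 5887 genes detected on all 9 arrays. When the arrays were scaled to their median instead, the SD of the brighter probe was 0.36 (2.01-fold range, percentile 31.0). In the authors' normalised table it was 0.28 (1.85-fold, percentile 22.7), and in the deposited signal with no scaling it was 0.51 (2.80-fold, percentile 40.6). Odc1 changed less over these choices, with SDs of 0.33 (percentile 24.1), 0.26 (17.4) and 0.44 (22.4) in the same order. In each of these 3 alternatives Odc1 thus had a smaller SD than the brighter Oaz1 probe, the reverse of their order after quantile normalisation. Both genes were lowest in mouse 7 of feed B in the unscaled signal.

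**Figure D3:**
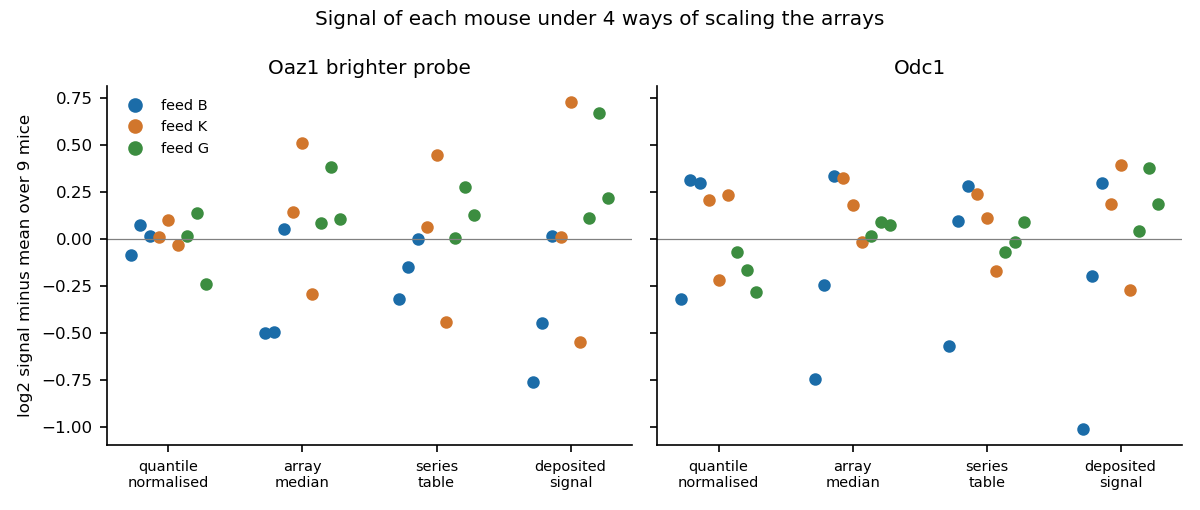
Deviation of each mouse from the mean of the 9 mice (log2 signal, vertical axis) for the brighter Oaz1 probe and Odc1, under 4 ways of scaling the arrays (horizontal axis), coloured by feed. The Oaz1 points lie close together after quantile normalisation (SD 0.11) and spread out in the other scalings (SD 0.28 to 0.51), while those of Odc1 change less (SD 0.26 to 0.44).

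**Figure D4:**
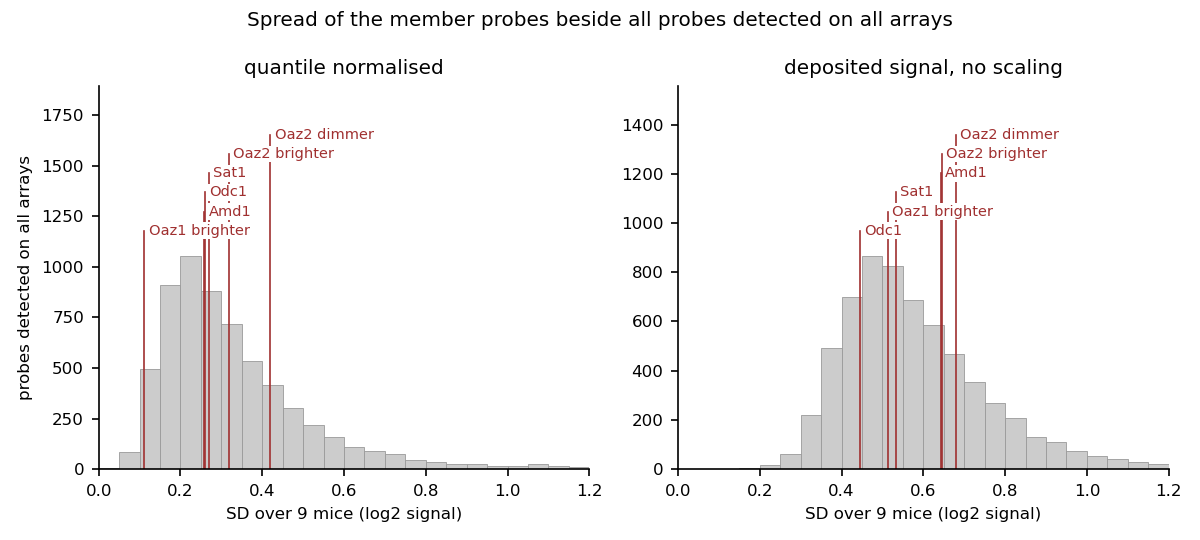
Number of probes (vertical axis) by SD of the log2 signal over 9 mice (horizontal axis), for the 6299 probes detected on all arrays, after quantile normalisation and in the deposited signal, with the 6 member probes detected on all arrays marked by lines. SDs from 1.2 up, 45 and 89 probes, lie beyond the axis. The brighter Oaz1 probe is at the left edge after quantile normalisation and near the middle without scaling.

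The members were also put on a scale relative to Oaz1, by scaling every array to its brighter Oaz1 probe, a choice made after the data had been seen. The median difference over all genes tested was then -0.03 for K minus B, 0.02 for G minus B and 0.04 for G minus K, against 0.41, 0.53 and 0.11 when arrays were scaled to their median. Values near 0 on the Oaz1 scale follow from the small differences of this probe between feeds after quantile normalisation, and are no separate test of Oaz1 as a reference. On this scale Odc1 differed by -0.05 (K minus B), -0.23 (G minus B) and -0.17 (G minus K), Sat1 by 0.28, 0.13 and -0.14, and Amd1 by -0.25, 0.20 and 0.45. None of the other 6 members passed at an adjusted p of 0.05 on this scale. Under median scaling, Sat1 was higher in feed K than in feed B by 0.71 and in feed G than in feed B by 0.64, of which 0.41 and 0.53 were the shift of all genes.

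The third question was whether the members moved together from mouse to mouse. Over the 21 pairs of members, each taken by its brightest probe, the median Pearson r was 0.03 after quantile normalisation, and 12 pairs were above 0. Pairs with Srm, detected on 4 arrays, or Sms, detected on 5, include spots at noise level. Oaz2 and Odc1 were the one pair with an unadjusted permutation p under 0.05: mice with a higher signal of the brighter Oaz2 probe had a lower Odc1 signal (r = -0.73, exact permutation p = 0.0178, adjusted over the 21 pairs p = 0.373; rho = -0.75, p = 0.0255, adjusted p = 0.535). Without the 2 mice farthest from the median of Oaz2, r was -0.83, and after subtracting the feed means it was -0.73. Under median scaling the same r was 0.24, and in the deposited signal 0.57, so its direction turned with the scaling. The dimmer Oaz2 probe, also detected on all 9 arrays, was not part of these pairs. It did not move with the brighter one over the mice (r = -0.33), so the relation to Odc1 is given for the brighter probe only. Oaz1 and Odc1 had r = 0.29 (exact permutation p = 0.471; rho = 0.28, p = 0.463) after quantile normalisation and 0.87 in the deposited signal.

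In the deposited signal all 21 pairs were above 0, from 0.11 to 0.91 with a median of 0.73, and under median scaling the median was 0.62. The pairs with Srm, a probe detected on only 4 arrays, were the low ones there. Array brightness is shared by all probes of an array, and the values under median scaling and in the deposited signal are given as descriptions.

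**Figure D5:**
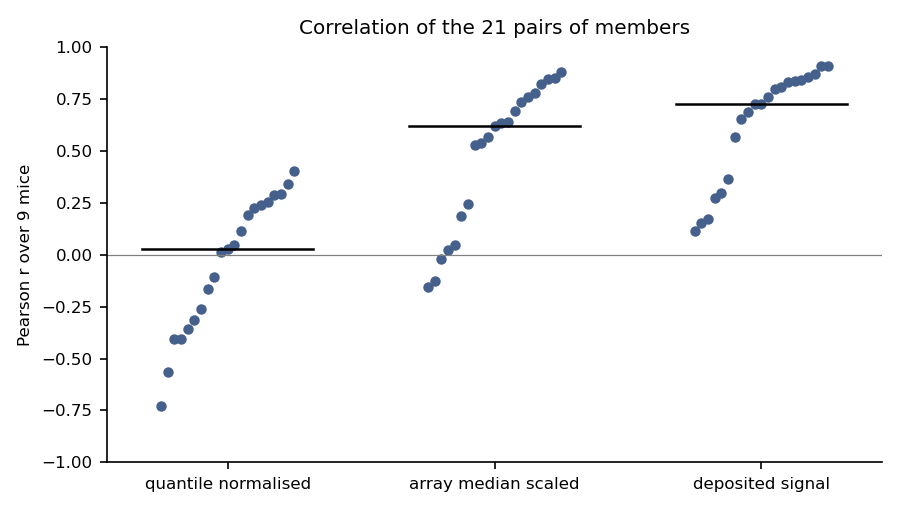
Pearson r over 9 mice (vertical axis) for each of the 21 pairs of members, sorted within each of the 3 scalings (horizontal axis), with a line at the median. The medians are 0.03 after quantile normalisation, 0.62 after median scaling and 0.73 in the deposited signal. Pairs with Srm or Sms include spots at noise level.

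Among the 6298 other probes detected on all arrays, the 3 whose pattern over the mice was most like the brighter Oaz1 probe were Smpd2, a neutral sphingomyelinase (r = 0.960), Cldn15, a claudin of tight junctions (r = 0.956), and Lap3, a leucine aminopeptidase (r = 0.950). Each was lowest in mouse 11 of feed G, as Oaz1 was: Lap3 read 13.44 there and 14.39 to 14.83 in the other 8 mice. Their own SDs were larger, at 0.31, 0.31 and 0.42. For Odc1 the 3 were Pfdn2, a subunit of the prefoldin chaperone (r = 0.978), Coq7, an enzyme of ubiquinone synthesis (r = 0.930), and the RIKEN gene 5930405J04Rik (r = 0.924), with SDs of 0.12, 0.11 and 0.14. These are the top values of a search over all probes on 9 arrays and carry no p.

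A wider list of 28 polyamine genes was set around the members. It covered other antizymes and inhibitors, oxidation, arginine and ornithine supply, S-adenosylmethionine supply, methylthioadenosine salvage, the hypusine pathway that uses spermidine to modify the translation factor encoded by Eif5a, and transport. Of these, 4 (Sat2, Agmat, Slc18b1 and Atp13a3) matched no probe, Amd2 shares the Amd1 probe and 23 had probes of their own. Detection on all 9 arrays held for 13 of the 23, 17 were tested and 2, Azin2 and Eif5a2, were detected on none. None of the 17 passed at an adjusted p of 0.05 in the F test or in any pair.

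Apip, a dehydratase that returns methylthioadenosine made by spermidine and spermine synthesis to methionine, was the one gene of the wider list under an unadjusted p of 0.05. It read 10.01, 10.68 and 9.44 in feed B, 8.60, 8.52 and 9.03 in feed K, and 9.28, 9.58 and 8.57 in feed G. Feed B lay above feed K without overlap. The difference K minus B was -1.33 (SE 0.37, limma unadjusted p = 0.00714, adjusted p = 0.773) and G minus B was -0.90 (SE 0.37, limma unadjusted p = 0.0416, adjusted p = 0.850), and the F test gave an unadjusted p of 0.0196. The counts under 0.05 in the wider list were thus 1 of 17 in the F test, 1 of 17 in K minus B, 1 of 17 in G minus B and 0 of 17 in G minus K, to be read against the percentages of all genes given above. The list's median differences were 0.08, 0.05 and -0.05 for K minus B, G minus B and G minus K.

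In spread, the wider genes detected on all 9 arrays had a median SD of 0.38, beside 0.29 over 5887 genes. These SDs are of the mean of a gene's probes, and Arg1 entered with a value raised by averaging, as described below. With Arg1 taken by its bright probe alone, the middle value would be the 0.30 of Slc3a2, close to that of all genes. By the mean of probes, Enoph1, an enzyme of the same salvage route as Apip, had the smallest SD of the list (0.14, 1.37-fold range). Arg1, the arginase that makes ornithine, had the largest (1.75, 54.5-fold), but this came from averaging: its second probe was marked as failed in mouse 8 of feed B and was detected in 1 mouse, so that the mean there held the bright probe alone. The bright Arg1 probe taken alone varied by an SD of only 0.13, or 1.36-fold between its lowest and highest mouse, which is below the SD of Enoph1. For Arg1, as for Oaz1, the spread of the gene was far smaller when the dim second probe was left out.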

How the data were processed

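Total RNA of jejunum from 9 mice was labelled by reverse transcription and hybridised to Applied Biosystems arrays with chemiluminescent detection. The deposited files of the authors hold, per probe, a signal intensity, an assay-normalised intensity, the spot's noise, the S/N score and a quality flag. The deposited series table held the same 297108 assay-normalised intensity values. Per the methods of the study, spot signals had been background-corrected and normalised for spot and position on the array. How the assay-normalised column was then scaled is not given in the sources used here, and the submitters' processing notes list RMA with no role. Where S/N was under 1, the signal given was the noise of the spot. Groups were taken from the sample titles. The members and the lists were chosen with earlier results of these data known.

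Spots flagged above 5000 were left out, the signals of 33012 probes were quantile normalised (limma 3.58.1, R 4.3.3), log2 values were taken, and values were averaged over the probes that share a gene symbol. Genes detected on at least 3 arrays were fitted with lmFit and eBayes, with no covariate, and p-values were adjusted by Benjamini and Hochberg over all genes or probes tested. All permutation tests were two-sided for correlations and over 280 splits for the F test. The scripts were tested on simulated data. Alternatives were scaling to the array median, values of the series table, only the brightest probe of each gene, each probe on its own, failed spots kept, no filter, detection on all 9 arrays, an intensity trend, the permutation test, leaving out each mouse, and, added after the data were seen, scaling to Oaz1 and no scaling. Symbols were matched through the RefSeq gene table where the files use older ones. Named genes were the members; from the wider list, those with an unadjusted p under 0.05, those with the smallest and largest SD and those detected on no array; and the 3 genes most like Oaz1 and Odc1. The number of arrays limits the precision. The limma p-values set differences between feeds against the spread between mice within feeds, pooled over the 9 arrays and moderated across the genes or probes tested. The permutation p-values of the correlations reorder the 9 mice without regard to feed.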

Additional observations from a re-analysis of the deposited data

How the results depend on the processing

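No member passed at an adjusted p of 0.05 in the F test or any pair under any alternative run, the smallest adjusted p of a member in a pair being 0.196, and the exact permutation test left the same count of 1 member under an unadjusted 0.05. Over all genes tested, where none passed, detection on all 9 arrays gave 1 gene in the F test and 1 in feed G minus feed B, and leaving out single mice gave 0 to 3 in the F test, 0 to 10 in feed K minus feed B and 0 to 3 in feed G minus feed B, the highest counts without mouse 10 of feed B. The SD of the brighter Oaz1 probe was 0.36 under array median scaling, 0.28 in the series table and 0.51 with no scaling, against 0.11, and 0.072 to 0.12 when single mice were left out. Of 369 differences of members under the alternatives 343 kept their direction and 26 turned, all of them without a call. With the brightest probe, or each probe on its own, Oaz1 was -0.028 for feed G minus feed B, and Oaz2 was -0.093 for K minus B, 0.12 for G minus B and 0.22 for G minus K. Under median scaling Oaz2 was 0.49 for G minus B, Odc1 0.38 for K minus B and 0.28 for G minus B, Amd1 0.19 and Srm 0.045 for K minus B. In the series table Oaz2 was 0.28 for G minus B and 0.023 for G minus K, Odc1 0.12 for K minus B and 0.065 for G minus B, and Amd1 0.061 for K minus B. Leaving out single mice turned 8, in the ranges -0.066 to 0.22 (Oaz2, K minus B), -0.18 to 0.064 (Oaz2, G minus B), -0.23 to 0.12 (Odc1, K minus B), -0.083 to 0.64 (Sms, G minus K) and -0.080 to 0.31 (Sat1, G minus B). The cause was not tested. A block for scan date or slide was not run, since the files give no date and each array is its own slide. No paired analysis was possible because each array came from a mouse of its own and the labels name no pairing between feeds.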

Other observations

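Arg2, the mitochondrial arginase, was chosen here after its values were seen. Its log2 signal was 15.18, 16.63 and 14.88 in mice 7, 8 and 10 of feed B, 16.14, 16.05 and 15.94 in mice 1, 3 and 4 of feed K, and 15.97, 15.39 and 15.10 in mice 4, 8 and 11 of feed G. The 3 lowest values were in mouse 10 of feed B, mouse 11 of feed G and mouse 7 of feed B, the same 3 mice that had the highest Fabp6 signal, and the highest value was in mouse 8 of feed B, where Fabp6 was not detected. Over the feeds, the limma F test of Arg2 gave an unadjusted p of 0.434 (adjusted p = 0.906). The relation was not tested.

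Eif5a, the translation factor that carries hypusine, was also named after its values were seen. Its brighter probe read 12.62, 13.24 and 14.61 in feed B, 14.37, 14.24 and 13.70 in feed K, and 13.86, 13.37 and 14.37 in feed G, a 3.99-fold range over the 9 mice, with the lowest and the highest value both in feed B. Azin1, the inhibitor of antizymes, read 11.41, 12.23 and 11.90 in feed B, 12.29, 12.70 and 12.34 in feed K, and 12.53, 12.03 and 12.35 in feed G. Feeds B and K did not overlap (difference 0.60, SE 0.26, limma unadjusted p = 0.05001, adjusted p = 0.787), while mouse 8 of feed G fell within feed B (G minus B 0.46, limma unadjusted p = 0.116, adjusted p = 0.880).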
